A study of Danio rerio with 32 samples.

Results

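Of the 193 genes that the authors listed as raised in adar-/- larvae at 7 dpf, 52 carried a proper gene symbol and lay outside the large antiviral families, and these 52 genes are described here. Adar is the zebrafish counterpart of mammalian ADAR1, the enzyme that turns adenosine into inosine in double-stranded RNA. The members were chosen from the authors' list by name alone: placeholder names (59 genes), clone names (29 genes), provisional zmp: names (2 genes) and 51 genes of the ifit, irf, stat, finTRIM, TRIM, btr, gig2, rnf213, proteasome and caspase families and the core sensor and ISG15 pathway were set aside. The list itself was selected by the authors on their fold change and adjusted p between genotypes, so the rise of these genes in the mutants is what chose them and was not tested again. Another 7 genes were listed as lowered, and none of them is a member.

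The 7 dpf comparison held 3 libraries of adar-/- larvae and 3 libraries of wild type (ABTL) siblings, each made from 3 pooled whole larvae, with polyadenylated RNA sequenced. The paper names AB as its wild type strain and as the background of the mutant line. The mutants carried a small CRISPR/Cas9 deletion in the second exon of adar with a premature stop, and came from an incross of heterozygous carriers, so that they still received maternal adar from their mothers. The 12 hpf libraries of the same study are a separate set of wild type (ABTL) embryos with intact adar, 3 libraries in each group, made from rRNA-depleted RNA of pooled whole embryos: uninjected embryos (Control), embryos injected with 1 ng of a translation-blocking Adar morpholino (Adar MO), and embryos injected with 50 pg of adar mRNA (Adar OE). All 12 hpf embryos came from a separate mating pair, and the Control embryos received no injection, so injection itself and the injected agent cannot be told apart.

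In vertebrates, unedited double-stranded RNA of the cell can be taken for viral RNA by sensors such as MDA5. Signalling from these sensors leads to the secretion of type I interferon, which fish call interferon phi, and interferon acts on receptors of the same and neighbouring cells to turn on a large set of interferon-stimulated genes. Many of these encode proteins that act on viral RNA, on vesicles holding a pathogen, on nucleotide pools or on the display of peptides to T cells.

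The only level used here for a gene at 7 dpf is the authors' mean normalized count over all 6 libraries, mutants and siblings together. It has no spread, the depth of each library was not examined, and it is not divided by gene length. It thus says how much read evidence lies behind a gene and gives no order of transcript abundance between genes. In whole larvae, more RNA per cell and more cells of an expressing type cannot be told apart. The members' means ran from 12.6 to 2024 with a median of 246.9, beside a median of 131.2 over all 193 listed genes, whose means ran from 7.84 to 8517. A mean of at least 100 was reached by 34 members (65.4%) and by 107 of all listed genes (55.4%), and a mean of at least 1000 by 8 members (15.4%) and 23 of all listed genes (11.9%). Together the members held 26.4% of the summed means of the list.

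**Figure D1:**
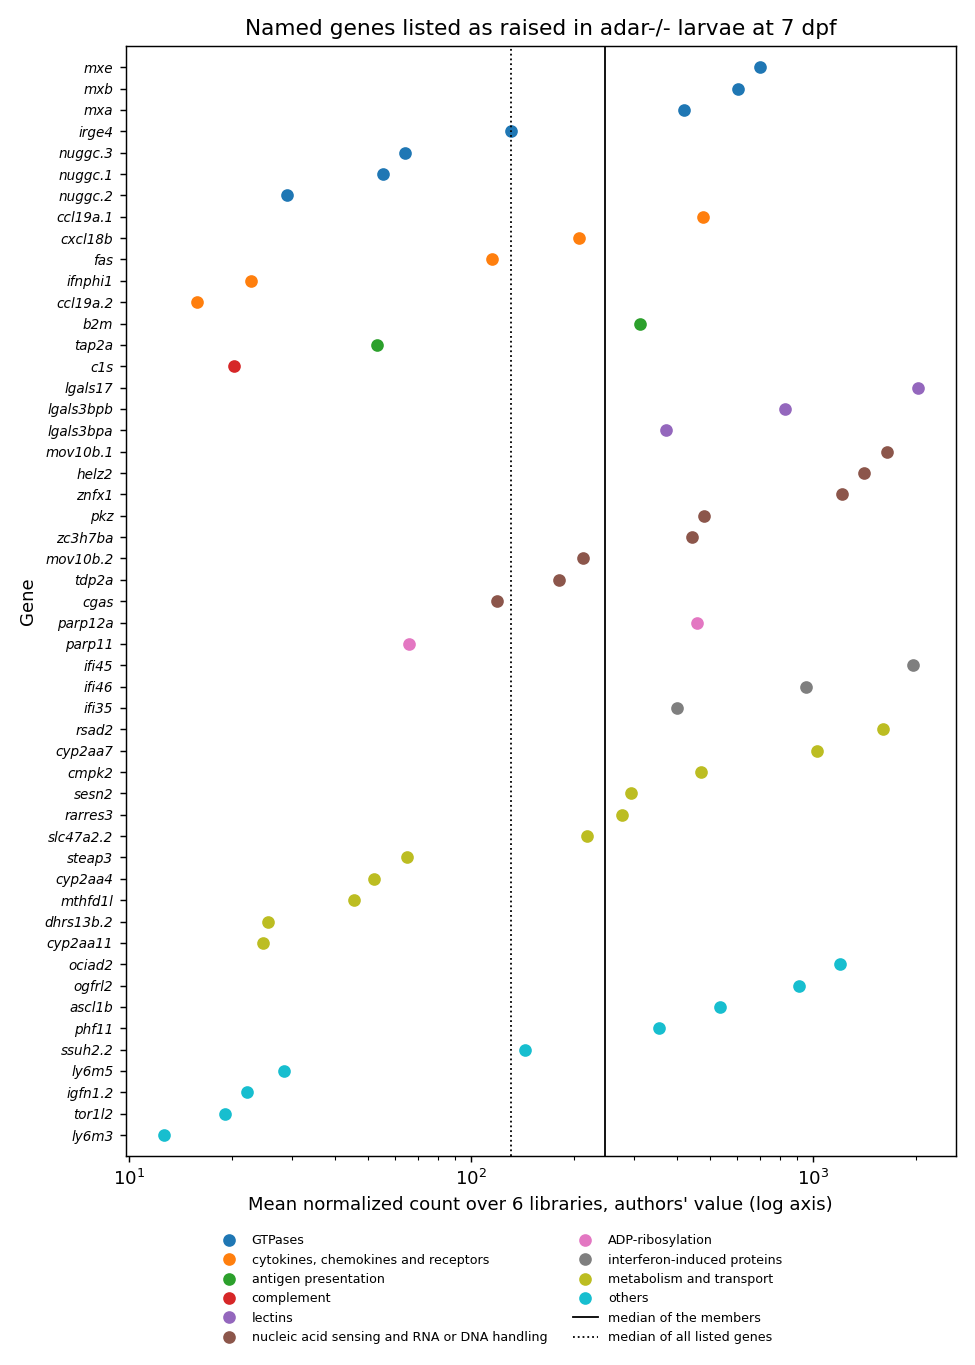
Authors' mean normalized count over 6 libraries at 7 dpf (x axis, log scale, not divided by length) for 51 of the 52 genes (y axis), coloured by role; each point is a single pooled value without error. The points run from 12.6 (ly6m3) to 2024 (lgals17), with vertical lines at the medians of the members (246.9) and of all listed genes (131.2).

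At 12 hpf a mean for each group of 3 libraries could be computed from the deposited means of pairs of groups, because the 3 tables shared one normalization: none of the 32519 genes gave a negative group mean (0 genes), and all 2074 genes at 0 in one table only had equal values in the other tables. These group means again have no spread, and no difference between them was tested. Means below about 1 rest on few reads. The same Control mean of 0.305 recurred for mxe, mov10b.1, cgas and parp12a. Another, 0.341, recurred for tap2a, ifnphi1, rarres3, dhrs13b.2 and nuggc.2. The ages differed in library preparation, genome build and normalization, and the paper describes the 7 dpf fish as of a different genetic background. Values of 7 dpf and 12 hpf are therefore given side by side and not compared. The order of the 12 hpf groups depends in part on the scaling. Dividing each group by its sum over all genes raised the median gene by 0.23 in Adar MO and 0.39 in Adar OE against Control on the log2(value + 1) scale. Dividing by the median ratio over 1825 genes with at least 50 in each group raised it by 0.29 and 0.59. The order stated for a gene is that of the deposited values, and genes with another group highest under these scalings are named as such or in the account of the whole list. In the libraries of this age 88.8% to 90.3% of the normalized reads fell in the HTSeq class without a counted feature and 2.54% to 2.86% were counted on genes. All 12 hpf levels, orders and fold shares given here thus rest on a small part of the reads, and the reason was not tested. The adar transcript itself, which the morpholino blocks at translation and the mRNA injection adds to, had means of 162.3 in Control, 107.9 in Adar MO and 252.7 in Adar OE. Over the 1825 abundant genes the median ratio to Control was 0.784 in Adar MO and 0.633 in Adar OE. Whether adar departs from these ratios was not tested.

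Among the GTPases, 7 genes were listed. The Mx proteins are dynamin-like GTPases that block several viruses in mammals and fish; mxe had a 7 dpf mean of 697.6, mxb of 601.7 and mxa of 420.3. At 12 hpf mxe had a mean normalized count of 0.305 in Control, 4.28 in Adar MO and 7.00 in Adar OE. The values of mxb were 1.02, 3.34 and 4.28 in the same order. Both genes had their lowest mean in Control, as did 52.4% of the 30420 genes above 0 in at least 1 group. Both were highest in Adar OE, where 57.5% of these 30420 genes were highest as deposited. For mxa the means were 7.64, 13.1 and 11.9, with Adar MO highest as deposited and Adar OE highest under both other scalings. RefSeq holds 8 Mx symbols with a single letter, of which these 3 were listed at 7 dpf; the other 5 (mxc, mxd, mxf, mxg and mxh) had Adar OE means between 2.19 and 7.42 and Control means between 0.305 and 2.49.

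The immunity-related GTPase irge4, of a family that in mice attacks vacuoles holding pathogens, had a 7 dpf mean of 131.2. It was at 0 in Control at 12 hpf, at 0.940 in Adar MO and at 2.19 in Adar OE. It was the only one of the 4 irge and irgf symbols in RefSeq that was found in the list, and none of the 5 gbp symbols was (0 listed). Family counts here and elsewhere cover only the 155 of 193 listed genes that could be matched to RefSeq. A symbol counted as not listed can be a listed gene that was not matched. Its absence thus does not show that it failed the authors' selection on fold change and adjusted p. The 3 nuggc genes, tandem copies named after a nuclear GTPase of germinal centre B cells in mammals, had 7 dpf means of 64.4 (nuggc.3), 55.4 (nuggc.1) and 29.0 (nuggc.2), and all 3 symbols of this family in RefSeq were listed. As deposited, the highest 12 hpf mean of each copy fell in a different group, though few reads stand behind the values of nuggc.2 and nuggc.3. The nuggc.1 means were 0.855 in Control, 3.45 in Adar MO and 8.28 in Adar OE. The nuggc.2 mean was highest in Adar MO (2.50), and nuggc.3 was highest in Control (1.36), with Adar OE highest under both other scalings.

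Secreted signals and their receptors gave 5 members. Interferon phi 1 (ifnphi1), a type I interferon, had a 7 dpf mean of 22.8, and the other 3 ifnphi symbols in RefSeq were not among the listed genes. At 12 hpf ifnphi1 had means of 0.341 in Control, 0.841 in Adar MO and 2.05 in Adar OE. Its 12 hpf means lay within the range where few reads stand behind a value. The chemokines ccl19a.1 and ccl19a.2, tandem copies of a ligand that in mammals guides dendritic cells and T cells through CCR7, had 7 dpf means of 475.7 and 15.8. At 12 hpf ccl19a.2 was at 0 in Control and Adar MO and at 2.37 in Adar OE. For ccl19a.1 the 3 means lay between 1.56 in Control and 2.74 in Adar OE. The fish chemokine cxcl18b had a 7 dpf mean of 207.1 and its highest 12 hpf mean in Adar OE (2.72). The death receptor fas, which starts apoptosis when bound by its ligand, had a 7 dpf mean of 115.5. Its 12 hpf means were 0.610 in Control, 2.16 in Adar MO and 6.21 in Adar OE.

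Antigen presentation was represented by b2m and tap2a. Beta-2-microglobulin (b2m), the light chain of MHC class I molecules, had a 7 dpf mean of 311.0. At 12 hpf its means were 1.63 in Control, 2.78 in Adar MO and 2.62 in Adar OE. The peptide transporter subunit tap2a, which carries peptides into the endoplasmic reticulum for loading onto class I, had a 7 dpf mean of 53.1. Its 12 hpf mean was 8.89 in Adar OE against 0.341 in Control and 1.28 in Adar MO. Of the 6 symbols beginning with tap1, tap2 or tapbp in RefSeq, tap2a alone was listed; the transporter gene tap2t had means of 49.3 to 55.4 in the 12 hpf groups. The complement protease c1s, which in mammals cleaves C4 and C2 in the classical pathway, was the sole complement gene by description, with a 7 dpf mean of 20.3 and 12 hpf means of 1.26, 5.46 and 7.84 in Control, Adar MO and Adar OE.

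**Figure D2:**
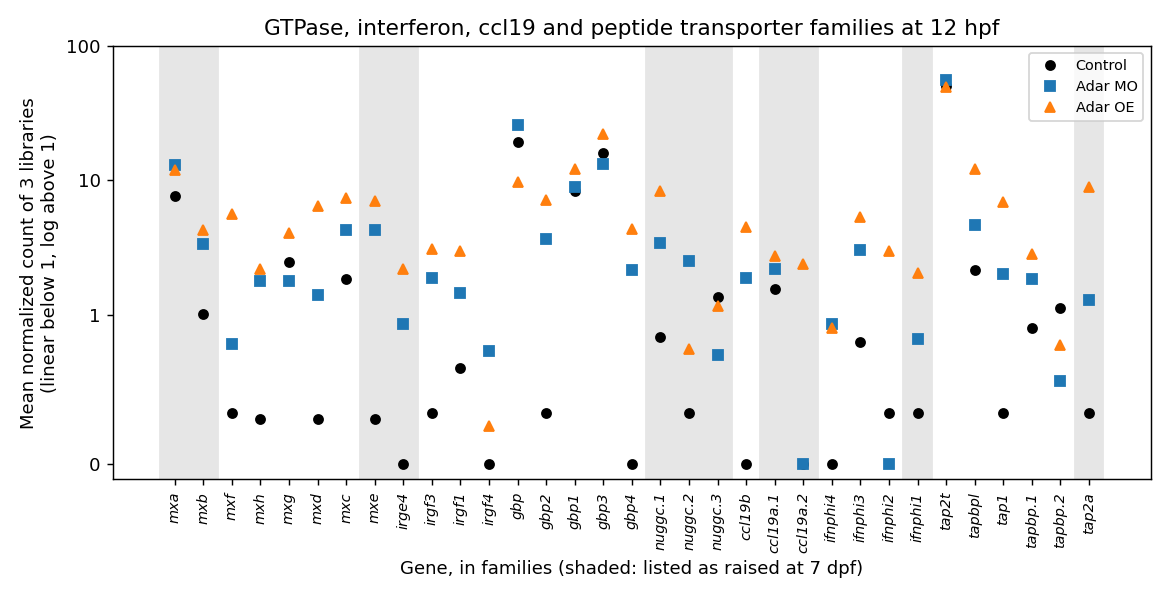
Group means of normalized counts at 12 hpf (y axis, linear below 1 and logarithmic above) for the RefSeq members of 7 families (x axis), with families' genes listed as raised at 7 dpf shaded; each symbol is the mean of 3 libraries without error. Of the genes shown, 8 of 11 listed and 17 of 22 other ones lie highest in Adar OE with the deposited scaling, beside 57.5% of all genes. The share over all genes is not matched for level. Examples are nuggc.1 (8.28) and tap2a (8.89) among the listed and gbp2 (7.12) and tap1 (6.94) among the others.

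The lectin group held 3 genes by description. The gene deposited as lgals17 (galectin 17) had a 7 dpf mean of 2024. It was the only member with a 12 hpf mean of at least 100 in any table, with 149.1 in Control, 104.5 in Adar MO and 95.9 in Adar OE, so that its order of groups as deposited ran against that of most members, whereas scaling by abundant genes put Adar OE highest (151.5). The identifier of this gene carries another symbol, igldcp, in the gene name table, so it stands in this group by its deposited description alone. The galectin-3-binding proteins, secreted scavenger-receptor glycoproteins induced by interferon in mammals, had 7 dpf means of 825.2 (lgals3bpb) and 372.7 (lgals3bpa). At 12 hpf lgals3bpb stood at 1.29 in Control, 1.12 in Adar MO and 9.80 in Adar OE. The copy lgals3bpa was at 0 in Control, at 7.29 in Adar MO and at 6.13 in Adar OE.

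Nucleic acid sensing and handling gave 9 members and 24.7% of the members' summed 7 dpf means. Cyclic GMP-AMP synthase (cgas), the cytosolic DNA sensor that in mammals makes the messenger for STING, had a 7 dpf mean of 119.5. The kinase pkz, a fish relative of PKR with Z-DNA binding domains in place of double-stranded RNA binding ones, had a mean of 479.3. Its Z-DNA binding domain is of the kind also found in Adar. At 12 hpf cgas had means of 0.305 in Control, 3.48 in Adar MO and 9.48 in Adar OE, with few reads behind the Control value. The pkz means were 3.94, 4.45 and 10.7, with Control and Adar MO close to each other and Adar OE above both.

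The helicases of the group act on RNA. The tandem copies mov10b.1 and mov10b.2, relatives of an RNA helicase that restrains retroelements in mammals, had means of 1647 and 212.3. The helicase gene helz2, interferon-stimulated in mammals, had a mean of 1407 and znfx1, whose product binds viral RNA in mammals, had a mean of 1214. All 4 were lowest in Control and highest in Adar OE at 12 hpf. Of all genes above 0 in at least 1 group, 52.4% were lowest in Control and 57.5% highest in Adar OE as deposited. The mov10b.1 means were 0.305 in Control, 3.89 in Adar MO and 12.6 in Adar OE. For znfx1 they were 1.64, 9.66 and 14.4. A further helz2 copy, helz2b in RefSeq, was in the list under a placeholder name with a 7 dpf mean of 746.6. The group also held the CCCH zinc finger gene zc3h7ba (443.4 at 7 dpf) and the DNA repair phosphodiesterase tdp2a (180.6). At 12 hpf the zc3h7ba means were 11.5 in Control, 6.55 in Adar MO and 13.2 in Adar OE. Those of tdp2a were 7.67, 13.9 and 15.3 in the same order.

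The ADP-ribosyltransferases parp12a and parp11, of which mammalian PARP12 is an interferon-stimulated gene, had 7 dpf means of 457.8 and 65.9, and were the listed genes among 18 parp symbols in RefSeq. At 12 hpf both were lowest in Control (0.305 and 2.62) and highest in Adar OE (3.25 and 9.44). As deposited, Control was lowest for 52.4% and Adar OE highest for 57.5% of all genes above 0 in at least 1 group. Of the proteins described only as interferon-induced, ifi45 had a 7 dpf mean of 1964, ifi46 of 954.4 and ifi35 of 400.3. The genes ifi45 and ifi46, named ifi27.1 and ifi27.4 in the gene name table, are relatives of mammalian IFI27. At 12 hpf ifi46 lay between 0.515 and 0.656 in the 3 groups and ifi45 between 0.487 and 2.00. For ifi35 the 12 hpf mean was lowest in Control (5.65), with 10.8 in Adar OE and a somewhat higher value in Adar MO.

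Metabolism and transport was the largest group by deposited description, with 11 genes, of which 1 (slc47a2.2) is of uncertain identity. Viperin (rsad2), a radical SAM enzyme that makes a chain-terminating nucleotide from CTP, had a 7 dpf mean of 1600, and cmpk2, the mitochondrial nucleotide kinase whose gene lies beside it, had one of 469.1. At 12 hpf the means of rsad2 were 0.682, 1.56 and 2.48 in Control, Adar MO and Adar OE. Those of cmpk2 were 0.515, 2.24 and 4.71, in the same order of groups. The cytochrome P450 genes of the fish subfamily 2AA had 7 dpf means of 1030 (cyp2aa7), 52.1 (cyp2aa4) and 24.6 (cyp2aa11), with 3 of 10 symbols listed. At 12 hpf cyp2aa11 had means of 4.15 in Control, 8.52 in Adar MO and 9.76 in Adar OE, and cyp2aa7 was highest in Adar MO, at 11.2 against 7.11 in Control and 6.96 in Adar OE. In contrast cyp2aa4 was highest in Control as deposited, at 29.0 against 21.7 and 20.6, and highest in Adar OE (32.5) when scaled by abundant genes. Sestrin 2 (sesn2), a stress-induced regulator of nutrient signalling, had a 7 dpf mean of 294.5. As deposited its 12 hpf means ran from 8.14 to 8.73, and scaled by abundant genes they were 8.14 in Control, 11.1 in Adar MO and 13.2 in Adar OE.

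The mitochondrial folate enzyme gene mthfd1l (45.4 at 7 dpf) and the metalloreductase gene steap3 (65.0) were both highest in Control at 12 hpf as deposited, and scaled by abundant genes mthfd1l was highest in Adar OE (52.0). Their Control means were 46.0 and 5.30 and their Adar OE means 32.9 and 2.74. The remaining genes were rarres3 (276.0 at 7 dpf), whose mammalian namesake is a phospholipase and acyltransferase, the short-chain dehydrogenase gene dhrs13b.2 (25.6) and slc47a2.2 (217.7). The symbol slc47a2.2 belongs to another identifier in the gene name table, which gives the listed one as herc56.3, so no transporter role is attached to it here and it stands in this group by its deposited description alone.

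Another 9 members fell in no class. They were ociad2 (7 dpf mean 1200), ogfrl2 (908.3), ascl1b (535.2), phf11 (355.3), ssuh2.2 (143.4), ly6m5 (28.5), igfn1.2 (22.2), tor1l2 (19.1) and ly6m3 (12.6). The gene deposited as ascl1b is described by a clone name, and the neurogenic factor ascl1b has another identifier in the gene name table, so the listed gene is not read as that factor. At 12 hpf it had means of 0.682 in Control, 3.20 in Adar MO and 14.3 in Adar OE. The PHD finger gene phf11 stood at 1.90, 2.24 and 14.6, with Adar OE apart from the others. The Ly6-type genes ly6m3 and ly6m5 instead stood highest in Adar MO, at 15.0 and 13.3, with Control and Adar OE means of 5.45 to 6.10. In all, 11 of the 52 members have another symbol in the gene name table, and 2 of these carry a symbol that the table gives to another gene.

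**Figure D3:**
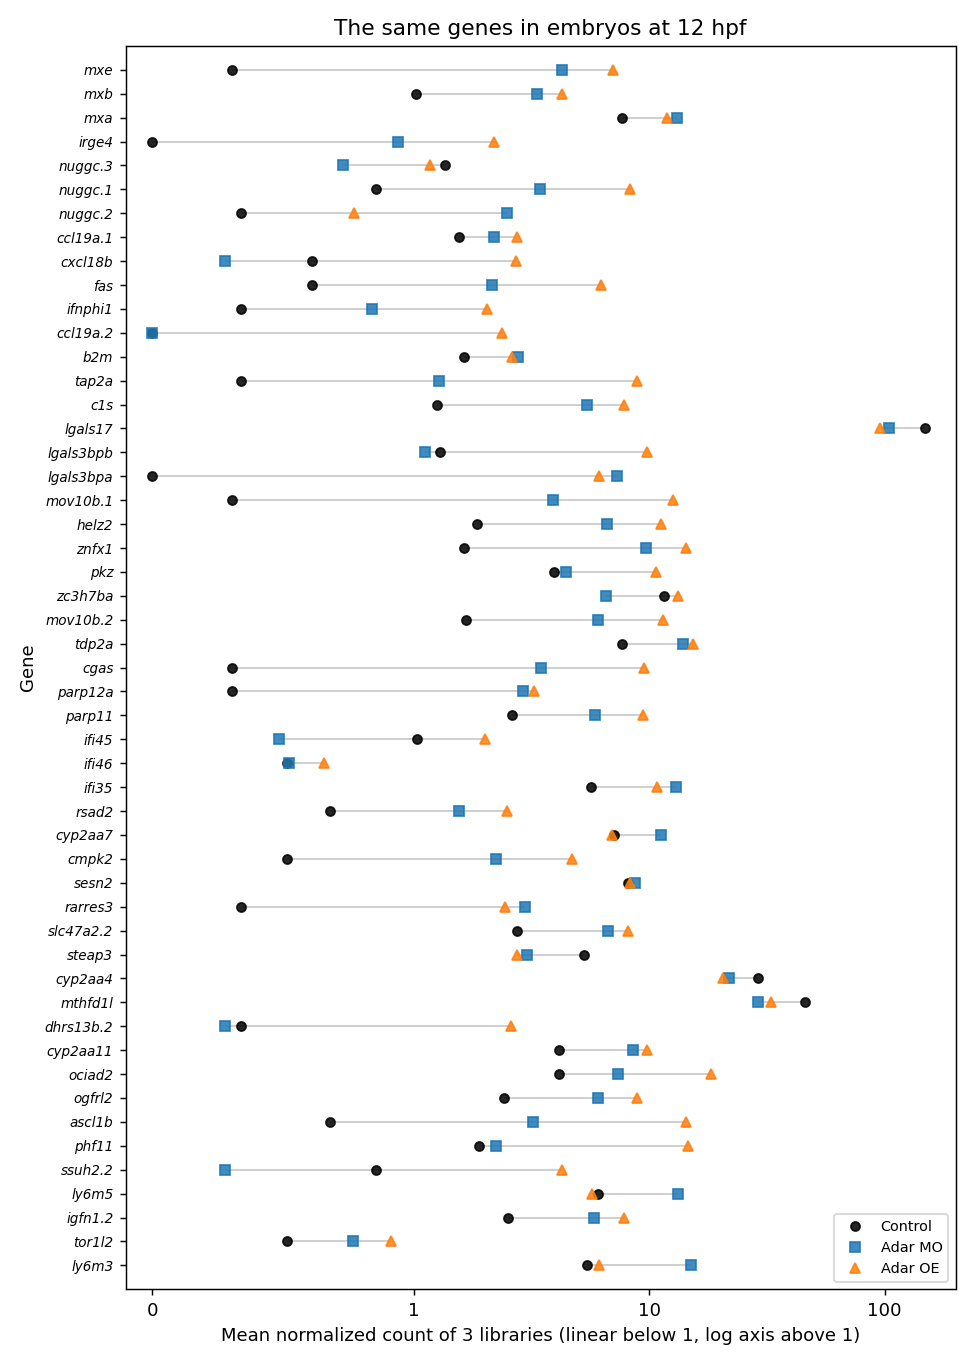
Group means of normalized counts at 12 hpf (x axis, linear below 1 and logarithmic above) for the same 51 genes (y axis, same order as in the plot of 7 dpf levels); each symbol is the mean of 3 libraries without error. Most genes lie below 10 in Control, and as deposited 37 of all 52 members have their highest mean in Adar OE (71.2%, beside 57.5% of all genes), 10 in Adar MO and 5 in Control, with 47, 4 and 1 when scaled by abundant genes. The share over all genes is not matched for level.

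As a list, the members had low but mostly nonzero means in embryos at 12 hpf. In the pooled table of Control and Adar MO, 6 of 52 members (11.5%) had a mean of at least 10 (ly6m3, mthfd1l, cyp2aa4, tdp2a, mxa and lgals17), beside 30.1% of all 32519 genes. A mean of at least 1 was reached by 42 members (80.8%), beside 70.0% of all genes. The median over members was 1.46 in Control, 3.68 in Adar MO and 7.51 in Adar OE. Over all genes the medians were 2.13, 4.25 and 6.87. Both medians stood lowest in Control and highest in Adar OE. As deposited, 37 members (71.2%) were highest in Adar OE, beside 57.5% of the 30420 genes above 0 in at least 1 group. Another 10 (19.2%) were highest in Adar MO, beside 22.1%, and 5 (9.62%) in Control, beside 20.4%. Control was lowest, below both injected groups, for 38 members (73.1%), beside 52.4% of these 30420 genes. The members highest in Adar OE numbered 41 (78.8%) when scaled by sums, beside 66.0% of these genes. Scaled by abundant genes they numbered 47 (90.4%), beside 71.1%. None of these shares over all genes was matched for level, and most members had low means. At pooled Control and Adar OE means of 1 to 10, where 43 members lay, 68.7% of all genes were at least 2-fold higher in Adar OE. Whether the members' highest or lowest groups differ from those of genes of like level was not tested. Besides the genes already given, b2m and sesn2 moved from Adar MO to Adar OE under both scalings, and lgals3bpa, ifi35 and rarres3 under scaling by abundant genes.

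Group means at least 2-fold apart, with at least 1 normalized count in the higher group, were counted next. The lower group had no minimum, so genes with few reads in it were counted too. Of 49 members that reached the minimum, 33 (67.3%) were higher in Adar OE than in Control and 0 were lower, beside 49.7% and 8.56% of all genes. Against Control, 26 of 44 members (59.1%) were higher in Adar MO and 1 (ifi45) was lower, beside 35.9% and 8.58% of all genes. Between the injected groups 19 of 50 members (38.0%) were higher in Adar OE than in Adar MO and 3 (nuggc.2, ly6m3 and ly6m5) were lower, beside 32.9% and 8.36% of all genes. Scaled by abundant genes, the shares higher in Adar OE than in Adar MO were 42.3% of members and 43.6% of all genes.

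The background depended on level. Among genes with a pooled Control and Adar OE mean of 1 to 10, where 43 members lay, 72.1% of the members and 68.7% of all genes were at least 2-fold higher in Adar OE, so the members' share was near that of all genes of this level. For Adar MO against Control the same band held 36 members, of which 66.7% were higher, beside 49.4% of all genes. At pooled Adar MO and Adar OE means of 1 to 10, 18 of 40 members (45.0%) and 44.1% of all genes were higher in Adar OE than in Adar MO. At pooled means of 10 to 100, 2 of 5 members and 21.8% of all genes were at least 2-fold higher in Adar OE than in Control, and 1 of 5 members and 11.7% of all genes in Adar MO than in Control. For Adar OE against Adar MO these were 1 of 8 members and 17.1% of all genes. Of all genes with a pooled mean of 100 or more, 0.316% were higher and 39.1% lower in Adar OE than in Control. The share of genes higher in Adar OE than in Control thus fell with level over these bands, and the part of the normalization in the members' values was not tested.

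**Figure D4:**
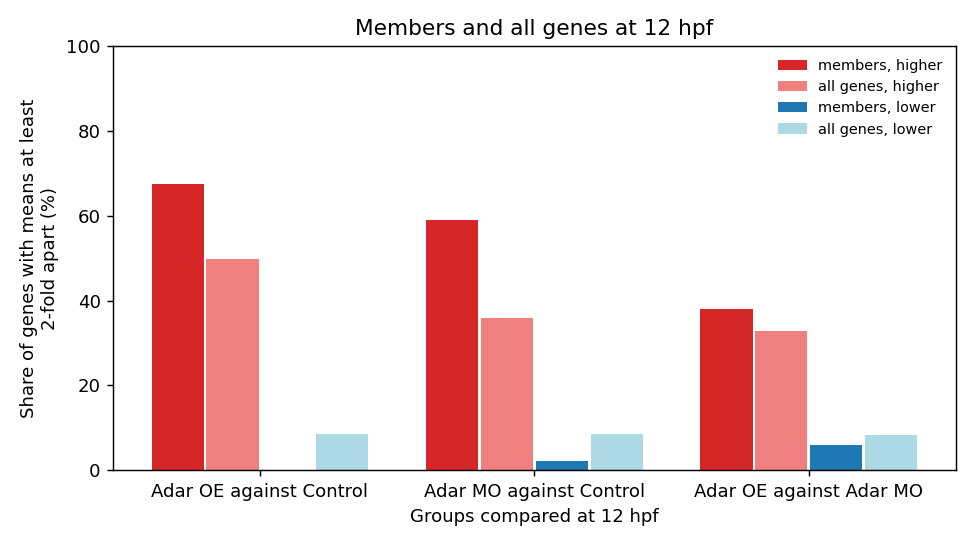
Share of genes (y axis, percent) whose group means at 12 hpf lay at least 2-fold apart, for each pair of groups (x axis), with bars for members and for all genes, higher or lower in the group named first. Members exceed all genes for Adar OE against Control (67.3% and 49.7%) and for Adar MO against Control (59.1% and 35.9%), without error bars because no single-library values were used. At pooled means of 1 to 10 these shares were 72.1% and 68.7% for Adar OE, and 66.7% and 49.4% for Adar MO. For Adar OE against Adar MO they were 38.0% and 32.9% as plotted, and 42.3% and 43.6% scaled by abundant genes. At pooled means of 1 to 10 they were 45.0% and 44.1% for Adar OE against Adar MO.

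Gene order was examined next. In the RefSeq annotation of GRCz12tu, 49 of the 52 members could be placed among protein-coding genes, and 19 of these (38.8%) had another gene of the list as direct neighbour, beside 35.8% of the 106 placed genes of the list that are not members. In 14 cases the neighbour was itself a member. These were the tandem copies of mxa and mxb, of nuggc.1, nuggc.2 and nuggc.3, of ccl19a.1 and ccl19a.2, of mov10b.1 and mov10b.2, and of cyp2aa7, cyp2aa11 and cyp2aa4, together with the pair rsad2 and cmpk2, whose products both act on nucleotides. The death receptor gene fas lay beside ifit14 and parp11 beside ftr64, genes of families set aside here. The genes ifi45, ifi46 and the one deposited as slc47a2.2 lay beside listed genes with placeholder names. No share over all protein-coding genes is set beside these counts. Reads that align equally well to near-identical copies could be lost or split between them, so the levels of single tandem copies are uncertain.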

How the data were processed

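Reads were aligned by the authors with STAR 2.7.7a, to GRCz10 at 12 hpf and to GRCz11 at 7 dpf, counted per gene with HTSeq 0.11.2, and normalized and compared between groups with DESeq2. The deposited mean normalized count of a gene is a signal, the authors' mean over the 6 libraries of a comparison. The tables also hold the authors' log2 fold changes, standard errors, Wald statistics and p-values, which were not used. Single-library values were not used and the depth per sample was not examined, so no test was made. Members, roles and families were chosen with earlier results of these data known. Members are named, grouped by description, with their 7 dpf mean, except 1 that is not reported here but stays in the counts. Group means at 12 hpf came from sums and differences of the 3 deposited means, an addition made after the data were seen. It was tested on simulated data, and negative means were looked for beyond a tolerance of 1e-06. The 5 HTSeq classes of unassigned reads were left out. Fold counts needed a 2-fold difference and a minimum of 1, with 5 and 10 and other scalings as alternatives. Gene names and order came from the name table and RefSeq (GRCz12tu), for which no coordinates are given. No sequences were analysed here. Python 3.11.15, pandas 2.3.3, numpy 2.4.6, scipy 1.17.1 and matplotlib 3.10.9 were used.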

Additional observations from a re-analysis of the deposited data

How the results depend on the processing

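The number of members was 52, 54 with zmp: names kept and 52 with each symbol counted once. Their median mean at 7 dpf was 246.9, 285.2 with zmp: names kept and 217.7 without the gene described by a clone name. The 6 members with a mean of at least 10 in the table of Control and Adar MO at 12 hpf (11.5%, beside 30.1% of all genes) became 42 at a minimum of 1 (80.8%, beside 70.0%) and 1 at a minimum of 100 (1.92%, beside 4.44%). At a minimum of 10 the table of Control and Adar OE gave 6 (11.5%, beside 33.5%) and that of Adar MO and Adar OE gave 9 (17.3%, beside 36.5%). The following alternatives were chosen after seeing the data. With a minimum of 10 in the higher group, the members at least 2-fold higher in Adar OE than in Control went from 33 to 9 (60.0% of those left, beside 31.4% of all genes). Those higher in Adar MO than in Control went from 26 to 13 at a minimum of 5 (54.2%, beside 24.5%) and 3 at a minimum of 10 (30.0%, beside 16.4%). Those higher in Adar OE than in Adar MO went from 19 to 11 (33.3%, beside 27.2%) and 6 (33.3%, beside 21.7%). Fewer genes reach such a minimum, and the shares over all genes then still include genes of far higher level than most members. At pooled means of 10 to 100, 2 of 5 members and 21.8% of all genes were at least 2-fold higher in Adar OE than in Control. Of all genes at 100 or more, 0.316% were. Scaling by the sum over genes or by the median ratio of abundant genes gave 40 and 42 members for Adar OE against Control (78.4% and 80.8%, beside 58.8% and 63.5% of all genes) and 32 and 33 for Adar MO against Control (69.6% and 71.7%, beside 43.4% and 45.4%). For Adar OE against Adar MO they gave 20 and 22 (39.2% and 42.3%, beside 38.6% and 43.6%), so that scaled by abundant genes the members' share lay below that of all genes. No paired analysis was possible because only means over pooled libraries were used, and leaving out a replicate could not be run for the same reason. Planned motif shares of promoters and protein comparisons were not run. Without single-library values, no statement on the error of any level or difference can be made, and 12 hpf means below about 1 rest on few reads.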
